A study of Caenorhabditis elegans with 44 samples.

Results

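The F-box B genes of *C. elegans* are a family of protein-coding genes that carry the symbol *fbxb-* followed by a number. Every entry with such a symbol in the WBcel235 annotation was taken, with no use of measured values, which gave 104 genes of the 22013 entries measured as mRNA and of the 46926 entries measured as antisense small RNA in the N2 background. F-box proteins are the substrate-recognition subunits of SCF ubiquitin ligases: the F-box binds an adaptor of the SKR (Skp1-related) family, the adaptor sits on a cullin with the RING protein RBX-1, and the rest of the F-box protein holds the substrate that is to be ubiquitinated. The F-box families of nematodes expanded rapidly by local duplication, and for most of the B members no substrate or individual function is known, so the genes are described here by position, level and response.

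The study examined how loss of *pals-22*, a negative regulator of the intracellular pathogen response, changes mRNA and small RNA in whole synchronized L1 larvae, which hatched overnight without food. In the N2 background, mRNA was sequenced from *rrf-3(pk1426); pals-22(pig26)* (2 libraries), *rrf-3(pk1426)* (3), *pals-22(pig26)* (3) and wild type (2), and small RNA from *pals-22(pig26)* (3) and wild type (3). In the second background every strain carried *otIs356*, an integrated repetitive array that expresses nuclear TagRFP in neurons from a *rab-3* promoter. There, mRNA and small RNA were each sequenced from *vsra-1(tm1637); pals-22(pig26)* (3), *vsra-1(tm1637)* (4), *pals-22(pig26)* (3) and animals with the array alone (4), called WT below. RRF-3 is an RNA-dependent RNA polymerase that makes the primary 26G siRNAs, and VSRA-1 is an Argonaute. Antisense small RNAs over worm genes are mostly secondary 22G siRNAs, made on the mRNA itself by other RNA-dependent RNA polymerases.

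Library totals lay between 36498609 and 61806727 estimated counts for N2 mRNA, 5479218 and 33903511 for *otIs356* mRNA, 11483077 and 43362769 reads for N2 small RNA, and 7950015 and 21594026 reads for *otIs356* small RNA. In the shallowest library of each of these kinds a total of 3 counts corresponded to 0.0822 CPM, 0.548 CPM, 0.261 RPM and 0.377 RPM, in the same order, which is the level that a count of 0 allows (counting error only). For mRNA a count is a scaled value, which differs from 1 read with transcript length, so floors and counting intervals for mRNA are approximate. CPM and RPM give counts or reads relative to the scaled library total. *rrf-3* mRNA averaged 1.72 CPM in the double mutant and 1.96 CPM in *rrf-3*, against 4.68 CPM in *pals-22* and 5.87 CPM in WT. The *pals-22(pig26)* and *vsra-1(tm1637)* deletions leave transcripts that are still counted, so the levels of those genes did not check the labels. No source used here says whether the libraries of a genotype came from separate cultures, so p-values measure only the spread between these libraries, which may be technical. All comparisons were tested in models fitted across all genes, at a Benjamini-Hochberg adjusted p below 0.1, the threshold of the study.

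Most F-box B genes sit in clusters. Chromosome II holds 58 of the 104, V holds 16, I holds 10, IV holds 9, III holds 8 and X holds 3, and 87 lie within 50 kb of another member. The genes are short: the median transcript is 1048 nt (379 to 2517 nt), and 86 have 2 exons. In spite of this clustering most members can be counted separately. Of the 104, 54 share no 31-base word with the transcripts of another gene and 87 share less than 10% of theirs, whereas *fbxb-14* shares 100% of its words with W08F4.12, *fbxb-29* shares 78.8% and *fbxb-19*, which overlaps *fbxb-18*, shares 66.3%. For reads as short as small RNAs, 75 members have less than 10% of their 22-base words elsewhere in the genome (median 1.63%). *fbxb-29* has 92.6% and *fbxb-39* 54.2%.

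The 4 neighbouring genes *fbxb-81* to *fbxb-84* on chromosome III are among the members that share more with each other: *fbxb-82* and *fbxb-84* have 18.7% and 23.1% of their 31-base words in other genes, mainly each other, and *fbxb-81* and *fbxb-83* have 7.97% and 4.93%. All 4 share a run of 30 bases, in capitals below, that occurs 4 times in the genome, once in each of them, so that a small RNA read from within it cannot be given to 1 gene. The flanking 15 bases on each side differ at some positions. All sequences here are read from the RefSeq genome of the WBcel235 assembly (ce11), on the gene's strand, in the minus orientation for these 4, at chrIII:141146-141205, chrIII:143154-143213, chrIII:144502-144561 and chrIII:146400-146459.
fbxb-81: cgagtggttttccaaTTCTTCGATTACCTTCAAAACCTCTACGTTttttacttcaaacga
fbxb-82: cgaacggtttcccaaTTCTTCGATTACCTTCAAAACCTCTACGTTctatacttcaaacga
fbxb-83: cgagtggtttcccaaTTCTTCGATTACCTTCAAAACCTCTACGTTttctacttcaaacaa
fbxb-84: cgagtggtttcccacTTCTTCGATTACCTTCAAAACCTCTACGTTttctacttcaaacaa

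F-box B mRNA was scarce in N2 wild-type larvae. Only 8 of the 104 members averaged 1 CPM or more in WT and 7 were at 0 in both WT libraries, with a median over members of 0.12 CPM (the mRNA values are scaled per length, so CPM values of different genes can be compared). In *rrf-3* 28 members averaged 1 CPM or more, and the median over members was 0.38 CPM. The double mutant had 24 such members with a median of 0.23 CPM, and *pals-22* had 8 with a median of 0.14 CPM. In bulk RNA of whole animals, fewer cells that express a gene and less of its RNA per cell cannot be told apart.

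The summed F-box B mRNA was highest in *rrf-3*. It was 61.6 and 59.7 CPM in *rrf-3; pals-22*, 82.6, 101.1 and 68.4 CPM in *rrf-3*, 38.4, 36.8 and 45.96 CPM in *pals-22*, and 51.6 and 48.8 CPM in WT. Each *rrf-3* library was above each library of the other 3 genotypes, and each *pals-22* library was below each WT library. The second of these orders rested on *fbxb-53* and on the scaling. Without *fbxb-53* the sum was 32.9, 32.1 and 40.3 CPM in *pals-22*, against 40.0 and 33.0 CPM in WT. With library totals alone *pals-22* replicate 3, at 46.6 CPM, was above WT, at 43.3 and 40.9 CPM. The *rrf-3* libraries were above all others under both. The F-box A genes, a related family of 170 genes, were ordered differently: their sum averaged 3218 CPM in the double mutant, 1896 CPM in *rrf-3*, 3195 CPM in *pals-22* and 1523 CPM in WT. The F-box C genes (48 genes) summed to means of 211.6, 210.0, 198.7 and 172.1 CPM in the same 4 genotypes.

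**Figure D1:**
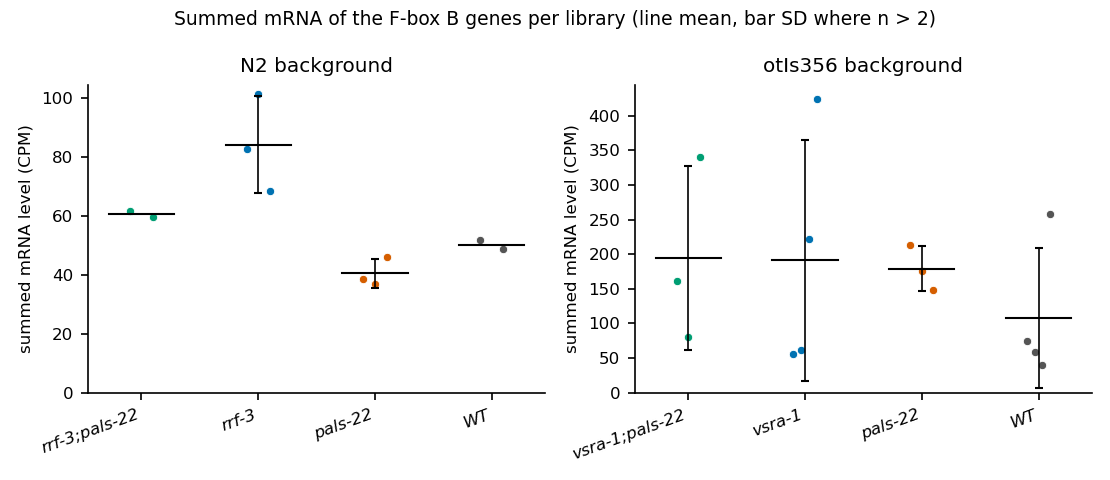
Summed mRNA level of the 104 F-box B genes in CPM (y axis, from 0) in each library, by genotype (x axis), with N2 on the left and *otIs356* on the right; points are libraries, lines are means and bars are SD where there are more than 2 libraries. The N2 *rrf-3* libraries lie between 68.4 and 101.1 CPM, above all other N2 libraries, and the *otIs356* genotypes overlap, with WT libraries between 40.1 and 257.7 CPM.

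To ask which members respond to loss of RRF-3, *rrf-3* was compared with WT in N2. Of the 72 members that passed the filter on low counts, 46 rose and 4 fell, with a median log2 fold change of 1.57, where 67.7% of all 18986 genes tested were called, 31.9% as higher and 35.8% as lower. The other 32 members were too low to test. The filter favours members that are high in a mutant, since 41 of the 72 passed only through mutant libraries. Among the 31 members that passed on the WT libraries alone, 19 rose and 4 fell, with a median of 0.99. A count with no filter gave the same picture: in 68 of the 103 members with any count all *rrf-3* libraries were above both WT libraries, and in 6 all were below, against 36.3% and 35.8% of all entries. Of the F-box A genes 68 rose and 47 fell among 156 tested (median 0.33), and of the F-box C genes 22 rose and 7 fell among 37 (median 0.84). Scaling by library totals alone moved the median of all genes by 0.46 and gave 56 F-box B genes higher and 2 lower. The 46 that rose were spread over all 6 chromosomes that hold members, with 22 of the 38 tested on II, 8 of 10 on I, 7 of 11 on V, 6 of 7 on IV, 2 of 5 on III and the 1 tested on X.

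The comparison was made between larvae whose tissue markers also differed. In *rrf-3* libraries the summed markers of hypodermis were 96.9 to 118.8 CPM, against 189 to 197 CPM in WT. The intestine markers were 45.6 to 59.8 CPM, against 72.2 to 76.1 CPM, and the neuron markers 187 to 205 CPM, against 299.7 to 309 CPM. Muscle markers were 666 to 944 CPM, against 1375 to 2108 CPM. Sperm markers were 0.859 to 2.80 CPM, against 4.16 to 16.7 CPM, and yolk markers 1.30 to 2.12 CPM, against 2.72 to 13.7 CPM. The pharynx markers went the other way, at 63.8 to 77.1 CPM in *rrf-3*, against 13.01 to 15.3 CPM in WT, as did the germline markers, at 35.1 to 37.6 CPM, against 8.49 to 19.5 CPM. Their part in the F-box B result was not tested.

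*fbxb-57* (chromosome V, 19288755 to 19289938, plus strand) had the sharpest contrast among the members counted in every WT library. Its mRNA was 1.01 and 1.11 CPM in *rrf-3; pals-22*, 1.34, 1.97 and 1.21 CPM in *rrf-3*, 0.0659, 0.15 and 0.0422 CPM in *pals-22*, and 0.0512 and 0.0686 CPM in WT. The genotypes with and without *rrf-3* did not overlap. In *rrf-3* libraries 255 counts were found, against 5 in WT, a ratio of 24.5 (95% counting interval 10.4 to 76.2, edgeR adjusted p = 0.000147). In the double mutant 112 counts stood against 10 in *pals-22*, a ratio of 13.3 (6.98 to 28.5, edgeR adjusted p = 0.00143).

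*fbxb-66* (chromosome I) and *fbxb-75* (chromosome IV) showed the same order of genotypes at higher levels. *fbxb-66* was at 3.87 and 3.64 CPM in *rrf-3; pals-22*, 6.09, 5.82 and 3.66 CPM in *rrf-3*, 1.01, 1.14 and 0.844 CPM in *pals-22*, and 1.02 and 0.755 CPM in WT. No library of an *rrf-3* genotype was within the range of the others. The log2 fold change was 2.54 (SE 0.28, edgeR adjusted p = 0.0001) for *rrf-3* against WT and 1.92 (SE 0.25, adjusted p = 0.00162) for the double mutant against *pals-22*. *fbxb-75* had 1.74 and 1.38 CPM in *rrf-3; pals-22* and 2.12, 2.03 and 1.66 CPM in *rrf-3*, against 0.307, 0.240 and 0.211 CPM in *pals-22* and 0.461 and 0.160 CPM in WT. It was higher by 2.64 (SE 0.42, edgeR adjusted p = 0.000762) and 2.61 (SE 0.39, adjusted p = 0.00268) in the same 2 comparisons.

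*fbxb-88* was the most abundant member in *rrf-3*. It had 4.10 and 3.42 CPM in *rrf-3; pals-22*, 6.40, 8.66 and 4.81 CPM in *rrf-3*, 2.24, 2.19 and 2.74 CPM in *pals-22*, and 2.72 and 2.52 CPM in WT. It was 1.34 higher in *rrf-3* than in WT on the log2 scale (SE 0.25, edgeR adjusted p = 0.00159), with no overlap between the 2 genotypes. At the low end, *fbxb-68* had 42 counts in *rrf-3*, against 4 in WT, a ratio of 5.05 (1.83 to 19.4, edgeR adjusted p = 0.0106), and this call was lost without WT replicate 2.

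*fbxb-14* (chromosome II, 582111 to 582749, minus strand) was at 0 in both WT libraries. It had 1.48 and 1.79 CPM in *rrf-3; pals-22*, 2.02, 1.74 and 1.32 CPM in *rrf-3*, and 0.395, 0.120 and 0.422 CPM in *pals-22*. Against the WT floor of 0.0768 CPM per library this was at least 22.05-fold higher in *rrf-3* (edgeR adjusted p = 0.000139) and at least 4.07-fold higher in *pals-22* (adjusted p = 0.00234). Its reads cannot be told from those of W08F4.12, with which it shares its whole sequence. *fbxb-49* was also at 0 in WT, and its 0.191, 0.0948 and 0.0897 CPM in *rrf-3* put it at least 1.63-fold higher. With these 2 genes set at their bounds, the median log2 fold change of the 72 members was 1.51.

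Of the 5 members most abundant in N2 WT, *fbxb-88* was the 1 that rose in *rrf-3*, and *fbxb-53*, *fbxb-67* and *fbxb-26* fell. *fbxb-53* (chromosome II, 1756882 to 1759452, plus strand), the member with the highest mRNA level in N2 WT, was at 2.80 and 3.15 CPM in *rrf-3; pals-22*, 3.25, 4.74 and 3.47 CPM in *rrf-3*, and 5.51, 4.65 and 5.70 CPM in *pals-22*, against 11.6 and 15.8 CPM in WT. It overlaps F36H5.10 on the same strand and shares 16.04% of its 31-base words with other genes. All mutant libraries were below both WT libraries. The log2 fold change was -1.84 in *rrf-3* (SE 0.19, edgeR adjusted p = 8.5e-05), -1.37 in *pals-22* (SE 0.19, adjusted p = 0.000889) and -0.83 in the double mutant against *pals-22* (SE 0.21, adjusted p = 0.0206). *fbxb-67* behaved alike, at 1.13 and 1.85 CPM in the double mutant, 1.09, 1.02 and 1.42 CPM in *rrf-3* and 1.76, 1.26 and 1.48 CPM in *pals-22*, against 3.02 and 3.09 CPM in WT. It was lower by -1.37 in *rrf-3* (SE 0.26, edgeR adjusted p = 0.00183) and by -1.02 in *pals-22* (SE 0.26, adjusted p = 0.0147). *fbxb-26* fell by 0.91 in *rrf-3* (SE 0.22, edgeR adjusted p = 0.00685), a call that was lost with scaling by library totals. *fbxb-69*, with 3.43 and 3.04 CPM in WT, was called in no N2 comparison.

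**Figure D2:**
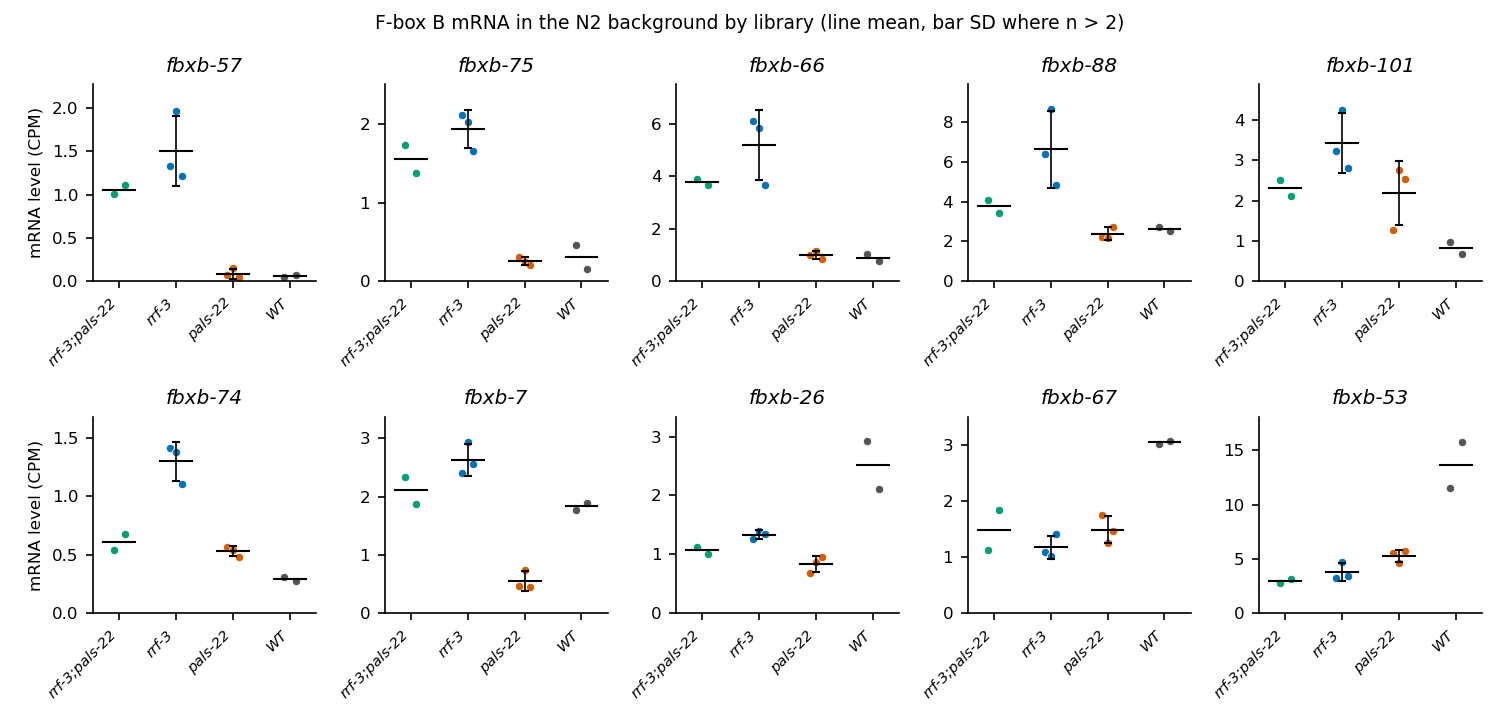
mRNA level in CPM (y axes, from 0) of 10 F-box B genes in each N2 library, by genotype (x axis); points are libraries, lines are means and bars are SD where there are more than 2 libraries. In the panels for *fbxb-57*, *fbxb-75* and *fbxb-66* both genotypes with *rrf-3* lie above both without it, and in the panels for *fbxb-26*, *fbxb-67* and *fbxb-53* the WT libraries lie above all others.

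Few members were called with loss of *pals-22* alone in N2. Of the 72 tested 4 were called higher and 8 lower, against 51.1% of all genes called (23.3% higher, 27.8% lower). The median log2 fold change was 0.18 (0.15 with the 2 genes at 0 in WT taken against the WT floor). Among the F-box A genes, by contrast, 82 rose and 20 fell of 156, and of the F-box C genes 12 rose and 7 fell of 37. The families were not matched for level: in WT the F-box A sum averaged 1523 CPM and the F-box B sum 50.2 CPM. The F-box B count was 7 without WT replicate 2. The 8 that fell were *fbxb-7*, *fbxb-26*, *fbxb-53*, *fbxb-67*, *fbxb-13*, *fbxb-24*, *fbxb-42* and *fbxb-84*. Those called higher were *fbxb-14*, *fbxb-101*, *fbxb-74* and *fbxb-49*. The last had 8 counts in all, at 0.0439, 0 and 0.127 CPM in *pals-22*. Its mean was 0.74 times the WT floor, so its level does not show a rise from the 0 of WT. Several marker sums were apart in these libraries as well. The sperm markers were 63.03 to 215 CPM in *pals-22*, against 4.16 to 16.7 CPM in WT, the pharynx markers 26.97 to 44.6 CPM, against 13.01 to 15.3 CPM, and the germline markers 21.5 to 33.8 CPM, against 8.49 to 19.5 CPM. The hypodermis markers were 154 to 162 CPM in *pals-22*, against 189 to 197 CPM in WT, and the neuron markers 252 to 278 CPM, against 299.7 to 309 CPM. Their part was not tested.

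*fbxb-7* (chromosome V, 17377406 to 17379233, plus strand) was lowest in *pals-22*. It had 2.34 and 1.87 CPM in *rrf-3; pals-22*, 2.41, 2.94 and 2.56 CPM in *rrf-3*, 0.461, 0.750 and 0.443 CPM in *pals-22*, and 1.77 and 1.90 CPM in WT. The *pals-22* libraries were below all others. The log2 fold change was -1.74 for *pals-22* against WT (SE 0.25, edgeR adjusted p = 0.00104) and 1.95 for the double mutant against *pals-22* (SE 0.25, adjusted p = 0.00159). The interaction, the change of the double mutant against *pals-22* minus that of *rrf-3* against WT, was 1.43 (SE 0.35, edgeR adjusted p = 0.0206). *fbxb-26* was at 1.13 and 1.01 CPM in the double mutant, 1.26, 1.40 and 1.35 CPM in *rrf-3* and 0.681, 0.870 and 0.9496 CPM in *pals-22*, against 2.92 and 2.10 CPM in WT. It was -1.59 in *pals-22* against WT (SE 0.23, edgeR adjusted p = 0.0009).

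*fbxb-101* (chromosome I, 14088087 to 14089858, plus strand) was one of the members that rose. It had 2.52 and 2.12 CPM in *rrf-3; pals-22*, 3.23, 4.26 and 2.81 CPM in *rrf-3* and 1.27, 2.76 and 2.53 CPM in *pals-22*, against 0.973 and 0.663 CPM in WT. All mutant libraries were above WT. It was higher by 1.42 in *pals-22* (SE 0.37, edgeR adjusted p = 0.0167, lost without WT replicate 2) and by 2.07 in *rrf-3* (SE 0.38, adjusted p = 0.00148). *fbxb-74* had 0.538 and 0.680 CPM in the double mutant, 1.41, 1.38 and 1.11 CPM in *rrf-3* and 0.571, 0.540 and 0.485 CPM in *pals-22*, against 0.307 and 0.274 CPM in WT. It was higher by 2.15 in *rrf-3* (SE 0.28, edgeR adjusted p = 0.000245) and by 0.87 in *pals-22* (SE 0.28, adjusted p = 0.0353, lost without WT replicate 2), and its level in the double mutant overlapped that in *pals-22*.

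When *rrf-3* was lost in animals that already lacked *pals-22*, 22 members rose and 2 fell, with a median of 0.74, where 35.6% of all genes were called (18.5% higher, 17% lower). The filter favours members that are high in a mutant here as well. Counted with no filter, 47 of the 103 members with counts had both double-mutant libraries above all *pals-22* libraries. In 6 both were below, against 26.7% and 26.9% of all entries. The number called was 11 without double-mutant replicate 1 and 15 without replicate 2. The sperm markers were 1.11 to 39.2 CPM in the double mutant, against 63.03 to 215 CPM in *pals-22*, and the hypodermis markers 127 to 132 CPM, against 154 to 162 CPM. The intestine markers were 62.9 to 63.5 CPM, against 73.7 to 76.4 CPM, and the neuron markers 226.6 to 235.01 CPM, against 252 to 278 CPM. Muscle markers were 837 to 867 CPM, against 889 to 1514 CPM, and pharynx markers 46.7 to 56.999 CPM, against 26.97 to 44.6 CPM. Their part was not tested. Between the double mutant and *rrf-3* only 2 members were called, *fbxb-74* (-1.09, SE 0.26, edgeR adjusted p = 0.0481) and *fbxb-115* (-0.72, SE 0.20, adjusted p = 0.0917), both lower, against 7.45% of all genes (5.25% higher, 2.21% lower). Without a filter or a threshold 45 of the 103 members with counts had both double-mutant libraries below all *rrf-3* libraries and none had both above, against 19.6% and 17% of all entries, and the median log2 fold change of the 72 tested members was -0.51. Marker sums were apart here too. In *rrf-3* hypodermis markers were 96.9 to 118.8 CPM, intestine 45.6 to 59.8 CPM, neuron 187 to 205 CPM and yolk 1.30 to 2.12 CPM, all below the double mutant (yolk 4.41 to 55.3 CPM). Pharynx markers were above it, at 63.8 to 77.1 CPM. The muscle, germline and sperm sums overlapped. The part of these sums was not tested. The interaction was called for 12 members, 4 higher and 8 lower, against 37.1% of all genes (21.5% higher, 15.7% lower). Both calls between the double mutant and *rrf-3* were lost when any *rrf-3* replicate other than replicate 3, or any double-mutant replicate, was left out.

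**Figure D3:**
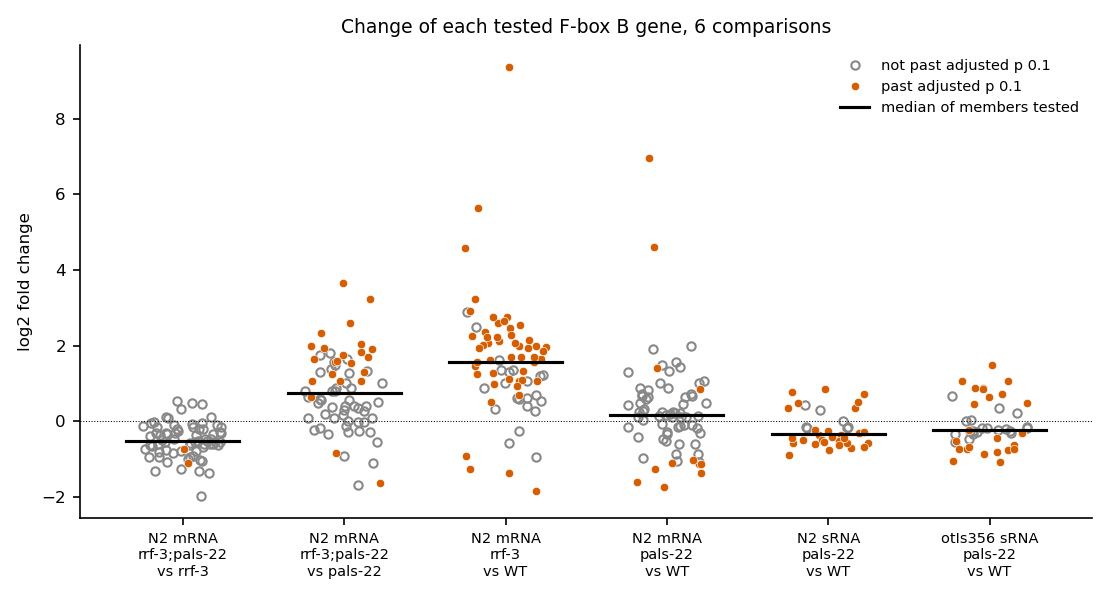
Log2 fold change (y axis) of each tested F-box B gene in 6 comparisons (x axis), filled points past an adjusted p of 0.1, open points not, and black lines the median over members tested. The medians were -0.51, 0.74, 1.57 and 0.18 for the N2 mRNA comparisons and -0.33 and -0.24 for small RNA, and the 2 highest points of *rrf-3* against WT and of *pals-22* against WT are *fbxb-14* and *fbxb-49*, at 0 in WT, whose fitted values have no fixed size.

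The genes that build SCF ligases with F-box proteins were set beside the members as a list of 29 found adaptors, cullins and related subunits. In N2 *pals-22* 11 rose and 4 fell, that is 37.9% and 13.8% of the list, where 23.3% of all genes rose and 27.8% fell. In *rrf-3* 15 rose and 7 fell, that is 51.7% and 24.1%, where 31.9% of all genes rose and 35.8% fell. The share called in either direction was nearer to that of all genes, at 51.7% against 51.1% in *pals-22* and 75.9% against 67.7% in *rrf-3*. *skr-4*, an adaptor gene, had 336, 337 and 324 CPM in *pals-22*, against 4.28 and 3.77 CPM in WT, a log2 fold change of 6.37 (SE 0.15, edgeR adjusted p = 1.43e-08). The other large changes in *pals-22* were those of the adaptor genes *skr-5* (4.57) and *skr-3* (2.04), the cullin gene *cul-6* (3.04), and the adaptor gene *skr-6*, which was at 0 in WT and at 21.97, 17.9 and 20.4 CPM in *pals-22*. The core cullin gene *cul-1*, with 30.2, 29.0 and 31.4 CPM in *pals-22* and 27.2 and 29.0 CPM in WT, was not called. In *rrf-3* *skr-6* had 0.382, 1.42 and 0.164 CPM, a mean 8.54-fold above the WT floor of 0.0768 CPM per library (edgeR adjusted p = 0.0144). Among the genes counted in WT, the largest changes in *rrf-3* were those of *skr-5* (2.52), *skr-4* (2.15), *cul-6* (2.13) and *skr-10* (1.80). In *otIs356*, with all libraries, 7 of the 29 rose in *pals-22* against WT and none fell. That is 24.1% of the list higher, where 5.78% of all genes rose and 5.1% fell.

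In the *otIs356* background the libraries of a genotype lay far apart for WT, *vsra-1* and the double mutant. The summed F-box B mRNA was 161, 80.95 and 341 CPM in *vsra-1; pals-22*, 55.6, 61.0, 223 and 424 CPM in *vsra-1*, 213, 175 and 148 CPM in *pals-22*, and 74.95, 58.5, 40.1 and 257.7 CPM in WT. WT replicate 4, *vsra-1* replicates 3 and 4 and double-mutant replicate 3 stood apart from the rest of their groups, and their deviations over all genes ran together (correlation with WT replicate 4 above 0.5). Among the WT and *vsra-1* libraries, those 3 had 223 to 424 CPM of F-box B mRNA, against 40.1 to 74.95 CPM in the other 5. The F-box C sum moved with it, at 291 to 399 CPM against 172 to 201 CPM, as did the hypodermis markers, at 208 to 286 CPM against 123 to 174 CPM. The intestine markers went the other way, at 43.0 to 52.6 CPM against 67.3 to 79.9 CPM. The part of these differences in the results was not tested.

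With all libraries, 2 of the 93 members tested were called in *pals-22* against WT, both higher, where 10.9% of all 16724 genes were called (5.78% higher, 5.1% lower). DESeq2 called 3 and 4 passed an unadjusted p below 0.05. They were *fbxb-14* and *fbxb-101*, the members that were also called in N2 in the same comparison. *fbxb-101* had 11.7, 4.501 and 11.1 CPM in *vsra-1; pals-22*, 1.63, 2.56, 17.96 and 11.9 CPM in *vsra-1*, 15.9, 13.5 and 29.5 CPM in *pals-22*, and 2.23, 2.29, 1.58 and 8.01 CPM in WT. The *pals-22* libraries were above every WT library, and the log2 fold change was 2.45 (SE 0.76, edgeR adjusted p = 0.0829). *fbxb-14* had 26 counts in *pals-22*, against 2 in WT, a ratio of 17.6 (4.41 to 153, edgeR adjusted p = 0.0754), and 72 counts in the double mutant, against 6 in *vsra-1*, a ratio of 13.5 (5.89 to 37.9, adjusted p = 0.0588). These intervals take scaled values as reads. The lowest scaled values of transcripts of 500 to 800 nt lay near 1.49, so the intervals are too narrow. *fbxb-14* was the 1 member called in the double mutant against *vsra-1*, where 10.9% of genes were called (6.66% higher). Leaving out 1 WT or *pals-22* library, or double-mutant replicate 1 or 3, gave 0 or 1 members in *pals-22* against WT, except that without WT replicate 4 the count was 17. Of the 93 members tested, 68 passed the filter only through mutant libraries. Counted with no filter, 5 of the 104 members had all *pals-22* libraries above all WT libraries and 2 had all below, against 11.4% and 12% of all entries.

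Without the 4 libraries that stood apart, an alternative chosen after seeing the data, 35 of 71 members tested rose in *pals-22* against WT and none fell, against 49.4% of all genes (24.6% higher). *fbxb-66* was then higher by 2.498 (SE 0.32, edgeR adjusted p = 0.000527) and *fbxb-101* by 3.22 (SE 0.41, adjusted p = 0.000563). Among the 5 members most abundant in N2 WT, *fbxb-88*, *fbxb-26*, *fbxb-67* and *fbxb-69* were higher by 1.497, 1.40, 1.28 and 0.89. *fbxb-53*, the most abundant, was not called (0.20, SE 0.22, edgeR adjusted p = 0.484), at 5.24, 5.65 and 4.73 CPM in *pals-22*, against 3.35, 4.91 and 5.11 CPM in the 3 WT libraries kept, which overlap. *fbxb-26* and *fbxb-67* had fallen in the N2 comparison. Between the double mutant and *vsra-1* 9 members rose, against 31.7% of all genes called (16.3% higher). The filter favours members that are high in a mutant. How many of these 71 passed only through mutant libraries was not counted, and no count without a filter was made for this set of libraries. Some marker sums were also apart between the *pals-22* libraries and all WT libraries of this background. Muscle markers were 1401 to 1757 CPM in *pals-22*, against 3124 to 4220 CPM in WT. Neuron markers were 385 to 465 CPM, against 568 to 816 CPM, and yolk markers 3.498 to 6.77 CPM, against 11.7 to 22.3 CPM. Sperm markers were higher, at 1.35 to 2.06 CPM, against 0.572 to 1.30 CPM. What part these sums had was not tested.

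No member was called in *vsra-1* against WT, in the double mutant against *pals-22* or for the interaction, with or without the 4 libraries. These 3 comparisons called 0.00598% of all genes each with all libraries, and 0.0302%, 0.181% and 0.0302% without the 4. With all libraries edgeR gave 2, 0 and 1 members at an unadjusted p below 0.05, and DESeq2 called none. In *vsra-1* against WT 90 of the 93 fitted changes were above 0 (median 0.89), where 2 of the 4 *vsra-1* libraries and 1 of the 4 WT libraries were among those that stood apart. In this background no change in F-box B mRNA with *vsra-1* was therefore detected, and the spread between libraries limits what could be.

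Antisense small RNA was found over most of the family, but at low levels. More than 5 RPM in at least 1 library was reached by 36 of the 104 members in N2 and by 44 in *otIs356*, that is 34.6% and 42.3%, beside 32.7% and 35.8% of all protein-coding genes. The median over members of the mean level was 2.07 RPM in N2 and 2.10 RPM in *otIs356*. A pair of genes held much of the signal: *fbxb-97* carried 27.1% of the summed F-box B small RNA in N2 and 35.4% in *otIs356*, and *fbxb-100* carried 19.7% and 17.2%. The sum was 1922, 1816 and 1786 RPM in N2 *pals-22*, against 2605, 2327 and 2378 RPM in N2 WT. No *pals-22* library reached the lowest WT library under TMM scaling (trimmed mean of M values), which sets the bulk of genes equal between libraries. With library totals alone the sums overlapped, at 2166, 2028 and 2035 RPM in *pals-22*, against 2385, 1984 and 2125 RPM in WT.

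The starts of the coding sequences of 7 members, 6 that the small RNA results turn on and 1 for its mRNA, are shown with the start codon in capitals, so that the members can be compared. Small RNA was counted per gene, so no read is placed on these bases. They cover the 3 on chromosomes other than I with the most small RNA (*fbxb-97*, *fbxb-85*, *fbxb-45*), 3 whose small RNA moved in opposite directions in the 2 backgrounds (*fbxb-91*, *fbxb-99*, *fbxb-71*), and *fbxb-57*, whose mRNA had the sharpest contrast in *rrf-3*. Between pairs of them 13 to 33 of the 60 bases are the same. Of the 39 words of 22 bases in each, none occurs elsewhere in the genome for 6 of them, and 9 do for *fbxb-91*. They lie on the minus strand at chrII:1848095-1848154, chrIII:10848608-10848667, chrII:1043966-1044025, chrII:3750660-3750719 and chrII:3793366-3793425 for the first 5, and on the plus strand at chrX:3263003-3263062 and chrV:19288849-19288908 for the last ones, each within 1 exon.
fbxb-97: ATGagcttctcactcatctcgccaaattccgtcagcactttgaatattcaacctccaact
fbxb-85: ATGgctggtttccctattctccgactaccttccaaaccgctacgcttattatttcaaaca
fbxb-45: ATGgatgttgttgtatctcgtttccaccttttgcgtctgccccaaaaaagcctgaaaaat
fbxb-91: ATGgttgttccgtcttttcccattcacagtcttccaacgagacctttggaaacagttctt
fbxb-99: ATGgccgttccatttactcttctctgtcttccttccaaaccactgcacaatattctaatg
fbxb-71: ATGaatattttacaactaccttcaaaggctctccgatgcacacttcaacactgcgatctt
fbxb-57: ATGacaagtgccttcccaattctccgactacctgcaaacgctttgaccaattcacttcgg

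Loss of *pals-22* in N2 went with lower small RNA over more members than higher under TMM scaling, but not with library totals. Of the 36 tested, 22 fell and 7 rose, with a median log2 fold change of -0.33, where 39.1% of the 7243 genes tested were called (20.8% lower, 18.3% higher). Library totals alone moved the median of all genes by 0.34 and gave 10 lower and 11 higher, while DESeq2 gave 21 lower and 6 higher. Changes are therefore given relative to the bulk of genes. With no filter, 34 of 103 members had all *pals-22* libraries below all WT libraries after the TMM scaling and 7 had all above, against 11.1% and 11.5% of all entries. Of the F-box A genes 29 fell and 25 rose among 79, and of the F-box C genes 9 fell and 2 rose among 15.

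The 8 members with the most small RNA all fell in N2. *fbxb-97* (chromosome II, 1846977 to 1848161, minus strand) had 526, 456 and 424 RPM in *pals-22*, against 763, 643 and 660 RPM in WT, without overlap, a log2 fold change of -0.55 (SE 0.10, edgeR adjusted p = 0.000998). Its mRNA was low, with 0.305, 0.265 and 0.194 CPM in *rrf-3*, against 0.0512 and 0 CPM in WT. *fbxb-100* (chromosome I, 14090730 to 14096348, minus strand), next to *fbxb-101* and overlapping Y63D3A.12 on the opposite strand by 139 bases, had 380, 370 and 358 RPM in *pals-22*, against 493, 466 and 456 RPM in WT, or -0.35 (SE 0.07, edgeR adjusted p = 0.00276), a call lost with library totals. *fbxb-20* had the clearest separation, with 41.6, 38.8 and 39.3 RPM in *pals-22*, against 67.9, 62.6 and 65.1 RPM in WT, or -0.71 (SE 0.07, adjusted p = 5.45e-06). It overlaps *fbxb-16* on the same strand, so reads in the overlap belong to both. For *fbxb-45* (107, 117 and 114 RPM in *pals-22*, against 156, 145 and 155 RPM in WT) and *fbxb-24* the changes were -0.44 and -0.42, and both calls were lost with library totals. *fbxb-24* overlaps *faah-4* on the opposite strand, and antisense reads over it may be sense reads of that gene. For *fbxb-85* (-0.28) and *fbxb-46* (-0.31) the sign turned with library totals, to 0.070 and 0.036.

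In *otIs356*, *pals-22* against WT gave 14 members lower and 10 higher of 44, with a median of -0.24, against 26.3% of all 8042 genes (14.6% lower, 11.7% higher). Library totals gave 9 lower and 11 higher. *fbxb-100* had 276, 270.1 and 271 RPM in *pals-22*, against 440.1, 428, 413 and 384 RPM in WT, or -0.61 (SE 0.08, edgeR adjusted p = 0.000113). *fbxb-45* had 93.0, 86.8 and 93.2 RPM in *pals-22*, against 134, 150.5, 168 and 147 RPM in WT, or -0.72 (SE 0.11, adjusted p = 0.000297). *fbxb-20* was at 32.1, 29.7 and 33.5 RPM in *pals-22*, against 91.4, 57.2, 66.5 and 47.7 RPM in WT, or -1.05 (SE 0.19, adjusted p = 0.000988). These 3 were lower without overlap in both backgrounds. *fbxb-72*, a member with less small RNA, had 10.99, 10.7 and 10.98 RPM in *pals-22*, against 24.2, 20.4, 25.9 and 20.6 RPM in WT, or -1.07 (SE 0.13, adjusted p = 4.79e-05).

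**Figure D4:**
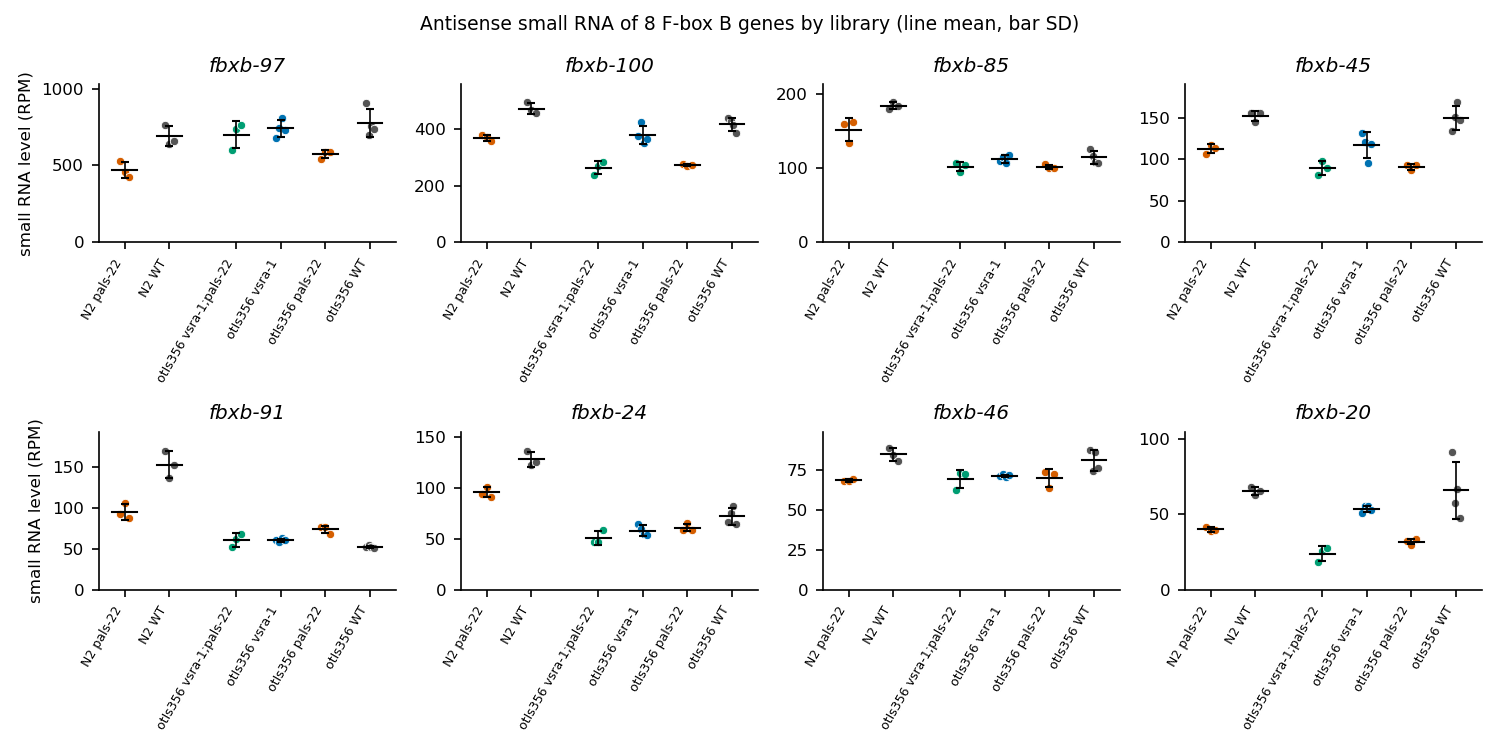
Antisense small RNA in RPM (y axes, from 0) of the 8 F-box B genes with the highest mean level, in each library of N2 (left in each panel) and *otIs356* (right), by genotype; points are libraries, lines are means and bars are SD. In *fbxb-100*, *fbxb-45* and *fbxb-20* the *pals-22* libraries lie below the WT libraries in both backgrounds, and in *fbxb-91* they lie below WT in N2 and above WT in *otIs356*.

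Other members moved in opposite directions in the 2 backgrounds. *fbxb-99* (chromosome II, 3792129 to 3793436, minus strand) overlaps the gene WBGene00021172 on the opposite strand by 50 bases, where antisense reads may be sense reads of that gene. It had 21.8, 25.0 and 21.9 RPM in N2 *pals-22*, against 39.3, 31.2 and 34.2 RPM in N2 WT, and 22.1, 20.2 and 16.04 RPM in *otIs356* *pals-22*, against 6.64, 4.92, 8.32 and 8.14 RPM in *otIs356* WT. Neither pair of groups overlapped. The log2 fold change was -0.62 in N2 (SE 0.10, edgeR adjusted p = 0.000327) and 1.49 in *otIs356* (SE 0.18, adjusted p = 3.84e-05). *fbxb-91* (chromosome II, 3749061 to 3750785, minus strand) had 92.9, 106 and 87.4 RPM in N2 *pals-22*, against 170.1, 136 and 153 RPM in N2 WT, and 76.3, 76.8 and 68.5 RPM in *otIs356* *pals-22*, against 52.7, 54.4, 52.4 and 50.99 RPM in *otIs356* WT. Its changes were -0.69 (SE 0.09, edgeR adjusted p = 0.00012) and 0.49 (SE 0.09, adjusted p = 0.00084). *fbxb-71* (chromosome X, 3262900 to 3264206, plus strand) went the other way, with 8.27, 7.28 and 10.01 RPM in N2 *pals-22*, against 6.19, 3.31 and 3.95 RPM in N2 WT, and 7.33, 5.90 and 7.51 RPM in *otIs356* *pals-22*, against 13.1, 12.6, 13.1 and 10.6 RPM in *otIs356* WT. Its changes were 0.87 (SE 0.20, edgeR adjusted p = 0.006) and -0.86 (SE 0.19, adjusted p = 0.00408).

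A fit of both small RNA tables together, added after seeing the data, tested the difference itself. The change with *pals-22* in *otIs356* minus that in N2 was called for 19 of 44 members, 12 higher and 7 lower, against 17% of the 7774 genes tested (9.15% higher, 7.82% lower). With library totals 8 were higher and 12 lower. The difference was 2.14 for *fbxb-99* (SE 0.23, edgeR adjusted p = 3.15e-05), 1.21 for *fbxb-91* (SE 0.12, adjusted p = 1.78e-05), 1.82 for *fbxb-105* (SE 0.25, adjusted p = 0.000242), 1.28 for *fbxb-51* (SE 0.21, adjusted p = 0.000836), -1.72 for *fbxb-71* (SE 0.27, adjusted p = 0.000705) and -1.003 for *fbxb-8* (SE 0.19, adjusted p = 0.00283). Of the 33 members tested in both backgrounds, 18 were called in both: 10 were lower in both, none was higher in both, 7 were lower in N2 and higher in *otIs356*, and 1, *fbxb-71*, was higher in N2 and lower in *otIs356*. The array and the strains differ together between the 2 backgrounds and cannot be told apart, and no source used here names the sequencing runs.

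**Figure D5:**
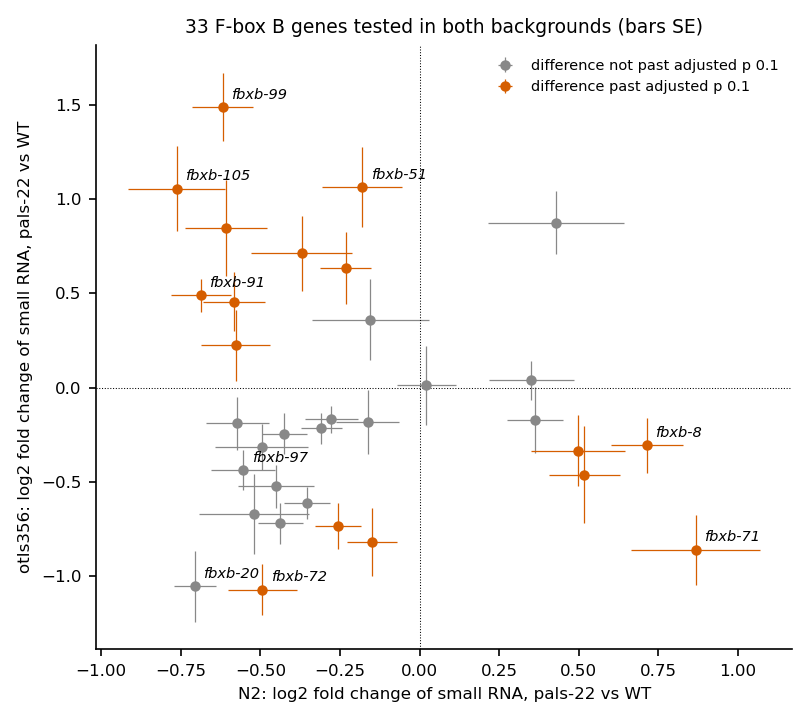
Log2 fold change of antisense small RNA in *pals-22* against WT in *otIs356* (y axis) and in N2 (x axis) for the 33 F-box B genes tested in both; bars are SE, and orange marks a difference between the backgrounds past an adjusted p of 0.1. *fbxb-99* at -0.62 in N2 and 1.49 in *otIs356*, and *fbxb-71* at 0.87 and -0.86, lie in opposite corners, while *fbxb-20* and *fbxb-97* are lower in both.

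To ask which of these small RNAs need VSRA-1, the *vsra-1* genotypes were compared in *otIs356*. In *vsra-1* against WT 2 of 44 members were called, both lower, against 4.96% of all genes (2.66% higher, 2.3% lower), and this count was unstable: it was 5, all higher, with library totals, 8 (3 higher, 5 lower) with DESeq2, and 0 without WT replicate 3. The 2 were *fbxb-95*, with 13.5, 12.5, 13.9 and 14.05 RPM in *vsra-1*, against 17.5, 16.2, 19.1 and 18.4 RPM in WT (-0.40, SE 0.09, edgeR adjusted p = 0.0364), and *fbxb-45* (-0.36, adjusted p = 0.0786). In animals without *pals-22*, loss of *vsra-1* moved 9 members, 3 higher and 6 lower, against 10% of all genes (6.69% higher, 3.34% lower). The interaction was called for 10, 3 higher and 7 lower, against 8.9% (5.76% higher, 3.15% lower).

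Of these members *fbxb-99* had the lowest adjusted p, both in animals without *pals-22* and for the interaction. It had 6.30, 6.78 and 8.34 RPM in *vsra-1; pals-22* and 11.6, 9.79, 8.17 and 10.1 RPM in *vsra-1*, beside the 16.04 to 22.1 RPM of *pals-22* and the 4.92 to 8.32 RPM of WT. The double mutant was below every *pals-22* library and within the range of WT apart from its highest library at 8.34 RPM. The change was -1.44 against *pals-22* (SE 0.19, edgeR adjusted p = 0.000193) and the interaction -1.96 (SE 0.26, adjusted p = 0.000197). *fbxb-51* showed the same order, with 3.30, 3.92 and 5.46 RPM in the double mutant, 6.46, 3.87, 5.53 and 4.65 RPM in *vsra-1* and 8.86, 9.14 and 10.1 RPM in *pals-22*, against 3.58, 4.27, 4.51 and 5.71 RPM in WT. It was 1.06 higher in *pals-22* than in WT (SE 0.21, edgeR adjusted p = 0.00215) and -1.14 in the double mutant against *pals-22* (SE 0.22, adjusted p = 0.00503). *fbxb-7*, whose mRNA fell with *pals-22* in N2, had 15.5, 17.7 and 18.1 RPM of small RNA in the double mutant and 26.7, 31.5 and 33.7 RPM in *pals-22*, against 16.9, 16.9, 22.2 and 23.0 RPM in WT. Its change was 0.63 in *pals-22* against WT (SE 0.19, edgeR adjusted p = 0.0318) and -0.84 in the double mutant against *pals-22* (SE 0.21, adjusted p = 0.0224). For *fbxb-91* the pair of changes was 0.49 and -0.28, and the interaction was -0.49 (edgeR adjusted p = 0.027). The comparisons of *pals-22* with WT and of the double mutant with *pals-22* share the *pals-22* libraries.

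*fbxb-71* and *fbxb-30* rose when *vsra-1* was lost in animals without *pals-22*. *fbxb-71* had 11.3, 13.97 and 17.1 RPM in *vsra-1; pals-22*, against the 5.90 to 7.51 RPM of *pals-22*, a change of 1.05 (SE 0.19, edgeR adjusted p = 0.00286). *fbxb-30* had 15.97, 19.3 and 21.2 RPM in *vsra-1; pals-22*, against 10.2, 11.4 and 11.7 RPM in *pals-22*, a change of 0.76 (SE 0.13, adjusted p = 0.00126), and the double mutant was also above every *vsra-1* and WT library, which had 11.1 to 14.4 RPM and 12.9 to 14.96 RPM. *fbxb-40* was the other member that rose (0.95, SE 0.23, edgeR adjusted p = 0.0194).

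In the double mutant against *vsra-1* 4 members rose and 8 fell, against 22.6% of all genes (12.1% higher, 10.5% lower). Of the members lower in *pals-22* than in WT, 3 that were lower here as well are given. *fbxb-20* had 18.1, 25.3 and 27.8 RPM in the double mutant, against 50.5, 55.04, 55.1 and 52.9 RPM in *vsra-1*, or -1.17 (SE 0.19, edgeR adjusted p = 0.000812). *fbxb-16*, which overlaps it, was at -0.94 (SE 0.12, adjusted p = 0.000121). *fbxb-100* had 239, 269.6 and 283 RPM, against 377, 426, 350.3 and 364 RPM, or -0.52 (SE 0.08, adjusted p = 0.0008). Neither gene given with its libraries overlapped between the genotypes. *fbxb-95* was higher by 0.74 (SE 0.10, edgeR adjusted p = 0.000196), with 20.3, 20.99 and 26.3 RPM in the double mutant, against 12.5 to 14.05 RPM in *vsra-1*.

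Small RNA and mRNA of the same members could be set side by side for *pals-22* in N2, where both were sequenced. Of the 36 members tested for small RNA 22 were tested for mRNA. Among the 22 with lower small RNA 12 were tested for mRNA, and of these none rose and 2 fell, *fbxb-24* and *fbxb-7*, where 23.3% of all genes rose and 27.8% fell. With library totals the small RNA call of *fbxb-24* was lost and the change of *fbxb-7* turned to 0.11. Of the 7 with higher small RNA 5 were tested for mRNA and none was called. Small RNA was not sequenced in *rrf-3*, so the members whose mRNA rose there have no small RNA values in that genotype.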

How the data were processed

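The authors deposited 4 tables. The mRNA tables hold estimated counts per gene (expected counts) that the authors made with kallisto, summed per gene and scaled; their values behaved as scaled per transcript length. The small RNA tables hold whole counts of reads per gene that the authors made from trimmed reads of 15 to 30 nt, aligned to ce11 with ShortStack and counted with featureCounts; miRNA levels showed that reads antisense to the genes were counted. Of the mRNA entries 171 in N2 and 172 in *otIs356* were not in the annotation.

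Estimated counts were rounded. Each table was fitted with edgeR 4.0.16 (limma 3.58.1, R 4.3.3) quasi-likelihood tests, 1 group per genotype, TMM scaling, no covariate and Benjamini-Hochberg adjustment over all genes tested. mRNA was filtered with filterByExpr (minimum count 10, minimum total 15), small RNA at more than 5 RPM in at least 1 library. CPM and RPM use TMM-scaled totals, and 5 RPM plain totals. The fit was also run on simulated counts, drawn with the spread estimated from the same tables and 1 mean level per gene. Such counts cannot show how libraries that deviate together, or the choice of scaling, affect the results. Alternatives were DESeq2 1.42.0, library totals alone, no filter, only the groups compared, replicate blocks and leaving out each library. No source used here says that replicate numbers pair the libraries. Correlations of deviations between same-numbered libraries were -0.43 to 0.38 in N2 mRNA and -0.33 to 0.58 in *otIs356* mRNA. They were -0.046 to 0.098 in N2 small RNA and -0.28 to 0.19 in *otIs356* small RNA. For *otIs356* mRNA pairing by number cannot be told from these values.

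Members named were those called for *pals-22* mRNA in both backgrounds, up to 5 per other comparison by adjusted p, the 8 richest in small RNA and the 5 with the highest mRNA in N2 WT; others named were chosen after their values were seen. The members and lists were chosen with earlier results of these data known.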

Additional observations from a re-analysis of the deposited data

Results flagged for a closer look

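Examined were 66 groups of 4 *otIs356* libraries, mRNA and small RNA together. Of these, 9 had 1 library far from the other 3 by Dixon's criterion, all of them mRNA. Chance gives about 1 in 20 for a single group, but the groups reuse the same WT and *vsra-1* libraries and are not separate tests. In *vsra-1* these were replicate 3 for *fbxb-53* (5.51 CPM) and replicate 4 for *fbxb-57* (4.84 CPM), *fbxb-68* (2.18 CPM) and *fbxb-75* (7.96 CPM). In WT it was replicate 4 throughout: for the summed F-box B level (257.7 CPM, the others 40.1 to 74.95 CPM), *fbxb-66* (7.38 CPM), *fbxb-68* (0.771 CPM), *fbxb-88* (11.8 CPM) and *fbxb-101* (8.01 CPM).

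Effects under the same contrast differed between groups by a test of the difference itself in 3 settings. For small RNA in *pals-22* against WT, the change in *otIs356* minus that in N2 was 2.14 for *fbxb-99*, 1.28 for *fbxb-51*, 1.21 for *fbxb-91*, 0.90 for *fbxb-7*, -0.44 for *fbxb-16*, -0.55 for *fbxb-72*, -0.64 for *fbxb-26*, -1.003 for *fbxb-8* and -1.72 for *fbxb-71* (log2 scale). For N2 mRNA, the change with *rrf-3* in animals without *pals-22* minus that in animals with it was 1.43 for *fbxb-7*, 1.36 for *fbxb-67*, 1.27 for *fbxb-26*, 1.01 for *fbxb-53*, -0.98 for *fbxb-115*, -1.96 for *fbxb-74*, -1.98 for *fbxb-101* and -7.02 for *fbxb-14*, a fitted value with no fixed size since WT was at 0. For *otIs356* small RNA, the change with *vsra-1* in animals without *pals-22* minus that in animals with it was 1.35 for *fbxb-71*, 0.89 for *fbxb-30*, 0.70 for *fbxb-95*, -0.49 for *fbxb-91*, -1.03 for *fbxb-7*, -1.34 for *fbxb-51* and -1.96 for *fbxb-99*.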

How the results depend on the processing

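Of 306 alternative counts of called members 257 were within 1.5 times the reported count, and of 1932 alternatives for named genes 1758 kept the call, 170 lost it and 4 turned direction. Those 4 were all N2 small RNA of *pals-22* against WT with library totals: *fbxb-85* 0.070, *fbxb-7* 0.11, *fbxb-46* 0.036 and *fbxb-16* 0.087. N2 *rrf-3; pals-22* against *rrf-3* (2 called) had 1 with no filter and 0 with only the compared groups, with the replicate block and with the block by library-name number, which gave 6 for the N2 interaction (12 called). *otIs356* mRNA *pals-22* against WT (2 called) had 1 with library totals, 24 with the replicate block and 35 without the 4 libraries that stood apart. The double mutant against *vsra-1* (1 called) had 0 with only the compared groups, 4 with the replicate block and 9 without the 4 libraries. *otIs356* small RNA *vsra-1* against WT (2 called) had 8 with DESeq2, 5 with library totals, 1 with no filter and 1 with the replicate block. Leaving out 1 library at a time gave 7 to 18 for N2 mRNA *pals-22* against WT (12 called), 35 to 53 for *rrf-3* against WT (50 called), 11 to 24 for the double mutant against *pals-22* (24 called), 0 to 4 against *rrf-3*, 7 to 17 for the interaction, 0 to 17 for *otIs356* mRNA *pals-22* against WT, 0 to 2 for the double mutant against *vsra-1*, and 0 to 4 for *otIs356* small RNA *vsra-1* against WT. The causes were not tested. Correlations of deviations were above 0.1 in 1 of 13 same-numbered pairs of N2 mRNA and 8 of 19 of *otIs356* mRNA. For small RNA they were above 0.1 in 0 of 3 pairs of N2 and 3 of 19 of *otIs356*. In *otIs356* mRNA they reached 0.58, so whether the numbers pair those libraries cannot be told. The replicate block moved no other count by over 1.5 times. The joint small RNA fit, the leaving out of 4 libraries, the count of non-overlapping members and the family sums with library totals or without *fbxb-53* were chosen after seeing the data. At *otIs356* mRNA depth, with 3 counts worth up to 0.548 CPM, members of low level limit what could be detected.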
